A study of Mus musculus with 6 samples.

Results

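The genes described here are 33 genes known for the identity and the secretions of Sertoli cells, the somatic nurse cells of the seminiferous tubule. They were chosen by symbol with earlier results of these data known, and all 33 were found among the 29333 genes of the deposited table. The shares of all tested genes given beside their counts are therefore a description and not a test of the set. A filter on low values, a mean normalised read count of at least 10 over the libraries, left 32 of them for testing and removed Krt18. The tissue was testis of Hsf5 knockout and control mice, all taken at postnatal day 16. The knockouts are Hsf5-/-. Controls carry the genotype label wild type, but the study's design statement permits Hsf5+/- animals in that group. Each group has 3 samples in the labels, of which 2 were analysed here: control 1, control 2, knockout 1 and knockout 3. The sources used here give neither the strain nor how the allele was made. Nothing in the labels ties the samples to separate animals. Each p-value below therefore rests on sample-to-sample spread alone, which may be technical.

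Sertoli cells take up follicle-stimulating hormone (FSH) and androgen signals and pass support to germ cells through growth factors, carrier proteins and the junctions of the blood-testis barrier. SOX9, SOX8, WT1 and GATA4 maintain their identity, anti-Mullerian hormone (AMH) marks their immature state, and the inhibin subunits they secrete feed back on the pituitary. Because the members share a cell type, a changed share of Sertoli cells in the tissue would multiply their levels by a common factor, and the question asked of the data was how closely the members kept to such a factor. In bulk tissue, more cells of a type and more RNA per cell cannot be told apart.

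The libraries held 16209093 to 18557898 recovered reads. Hsf5 itself had normalised read counts of 2541 and 3147 in control 1 and 2 and of 1926 and 1602 in knockout 1 and 3, giving a log2 fold change of -0.69 (SE 0.12, limma Benjamini-Hochberg adjusted p = 0.00716). The targeted gene was therefore lower in both libraries labelled knockout, but leaving out control 2 (limma adjusted p = 0.108) or knockout 3 (adjusted p = 0.072) ended the call. Which exons these remaining reads came from cannot be read from a count per gene. Over all 17480 tested genes, 573 were called higher and 2366 lower. The defining markers of Sertoli cells were abundant in all 4 libraries, with Clu, the secreted chaperone clusterin, between 57954 and 72450 normalised reads and Sox9 between 1985 and 2892.

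Of the 32 tested members, 8 rose and none fell in the knockout. The 8 were Defb36, Aard, Sox9, Inhbb, Mro, Vim, Kitl and Espn, with rises in the group mean from 20.1% for Espn to 47.9% for Defb36 (limma, Benjamini-Hochberg adjusted p under 0.05). Over all tested genes, 3.28% were called higher and 13.5% lower by the same rule. At an unadjusted p under 0.05, which is also a 95% interval that excludes 0, 14 members were higher and 0 lower, against 10.8% and 20.1% of all tested genes. The edgeR test on recovered reads called 7 members higher and 0 lower, and DESeq2 on the same reads called 8 and 0. In 21 of the 32 members both knockout libraries lay above both controls and in 0 both lay below, against 29.8% above and 31.9% below over all tested genes. The log2 fold change was above 0 in 29 of 32 members and in 51.7% of all tested genes.

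None of the 8 calls held with every choice of libraries or settings. Without control 1, control 2, knockout 1 and knockout 3 in turn, 3, 0, 3 and 2 members were called. The 3 called without control 1 included Gata4, which was not called with all 4 libraries. Aard kept its limma call without control 1 (adjusted p = 0.0438), knockout 1 (adjusted p = 0.0376) and knockout 3 (adjusted p = 0.046), and lost it without control 2 (adjusted p = 0.187). The count also moved with the scaling of the libraries: 14 members were called higher when libraries were scaled to their read totals, 9 with TMM factors, and 1 when they were scaled to 15 other Sertoli genes. It was 0 without the mean-variance trend and 0 without a filter on low values. None was called lower under any of these settings. In the authors' deposited table the same 8 members, and no others, passed an adjusted p of 0.05.

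**Figure D1:**
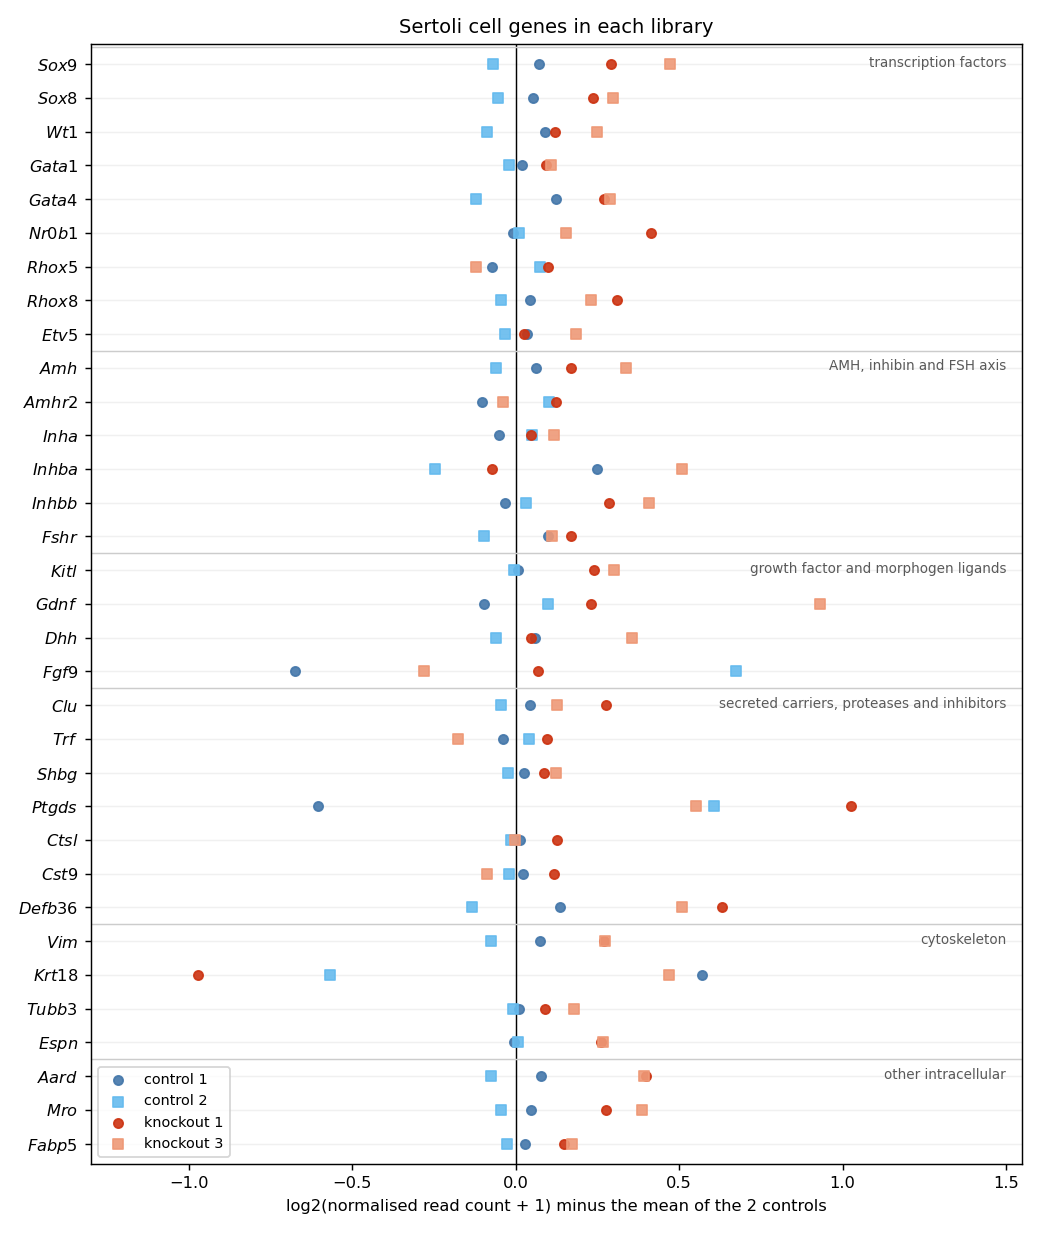
The level of each of the 33 genes in each library, as log2(normalised read count + 1) minus the mean of the 2 controls, with circles for replicate 1 and squares for control 2 and knockout 3. Knockout points lie to the right of both controls in 21 of the 32 tested members, and the widest scatter is in the weakly read genes Fgf9, Ptgds and Krt18.

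The members' fold changes were spread around a positive median, and the data do not settle whether they share 1 factor. The median log2 fold change of the 32 members was 0.21, a level 15.7% above control, against 0.01 for all tested genes. The quartiles were 0.10 and 0.28, and the lowest and highest values were -0.11 for Fgf9 and 0.79 for Ptgds. The 95% interval held the median of the members in 29 of 32 genes. It lay above that median for Aard and Defb36 and below it for Cst9. Defb36 kept this place in every alternative that gives an interval except without the trend and without knockout 1. Aard also lost it when libraries were scaled to other Sertoli genes and without control 1 or control 2. These 29 do not all show a rise, since 17 intervals held both 0 and the member median, so for these genes no change and the common shift cannot be told apart. An interval that holds the median does not show that a member shares it.

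Scatter was narrower among the 27 members with a mean of at least 500 normalised reads, with a SD above their SEs. Their log2 fold changes had a SD of 0.14, where the SE of a single member lay between 0.07 and 0.13 with a median of 0.08. The SD was not compared with the SEs by a test. These SEs also rest on the mean-variance trend, and without it 0 members had an interval that excluded the member median. The 5 tested members below that level had SEs from 0.13 to 0.62. Of the 32 members, 15 lay within 0.1 of the member median. When the libraries were scaled to the median of the members themselves, which sets each member against the common shift, 1 of 32 was called: Defb36 stood 0.35 higher (limma Benjamini-Hochberg adjusted p = 0.0477). On that scale Aard stood 0.17 higher (adjusted p = 0.124) and Cst9 fitted at -0.21 (adjusted p = 0.153), neither of which was called. The factors of that scaling came from the members, so it shows departures from their median and not a shift of the set.

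**Figure D2:**
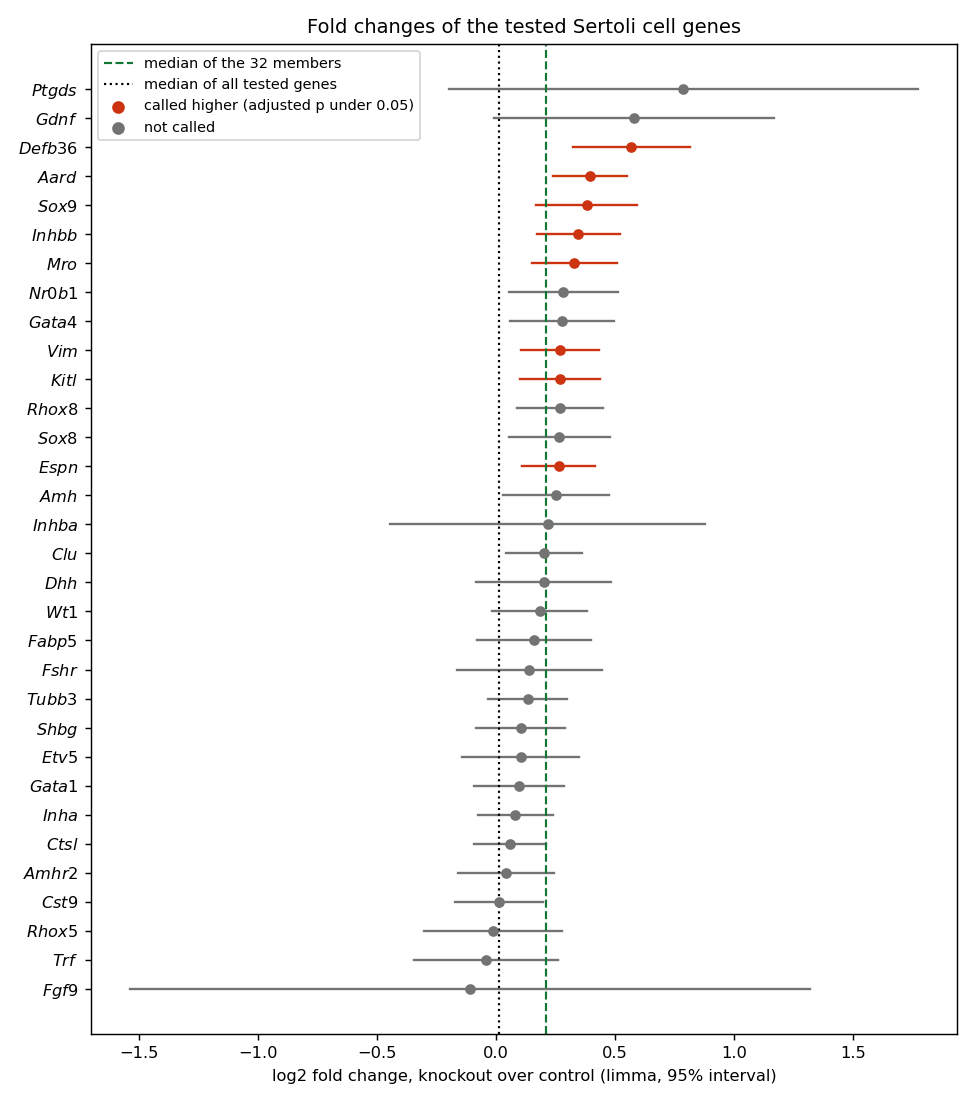
The log2 fold change of each of the 32 tested genes with its 95% interval from limma, ordered by value, with the 8 called genes in red. The dashed line is the member median of 0.21 and the dotted line the median of all tested genes, 0.01. Cst9 lies wholly to the left of the dashed line, and Aard and Defb36 wholly to the right.

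The shift of the set was seen in each knockout library, and the controls also differed from each other. Relative to the mean of the controls, the median member stood at 0.03 and -0.03 in control 1 and 2 and at 0.17 and 0.24 in knockout 1 and 3 on the log2 scale. Of the 32 members, 31 lay above the control mean in knockout 1 and 26 in knockout 3. The same counts were not made over all tested genes, where the fitted log2 fold change was above 0 in 51.7%. Between the controls, 22 members were lower in control 2 than in control 1, with a median difference of -0.05. Among all 17480 tested genes, 8129 were lower in control 2, with a median difference of 0.02. Together the 33 genes took 0.967% of the reads in control 1 (95% exact binomial interval 0.963% to 0.972%), 0.893% in control 2 (0.889% to 0.897%), 1.18% in knockout 1 (1.17% to 1.18%) and 1.14% in knockout 3 (1.13% to 1.14%). These intervals cover counting error only. On the scale of library totals, the median log2 fold change of all tested genes was 0.12, against 0.01 in the main fit. The median gene thus also rose on the scale of these shares. Without Clu, the gene with the most reads, the shares were 0.619%, 0.578%, 0.745% and 0.745% in the same order, so both knockouts lay above both controls with or without it.

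Spermatocyte markers moved in the opposite direction. Pachytene spermatocytes are the germ cells in the long middle stage of meiotic prophase. Of 12 markers of these cells 11 fell, beside 13.5% of all tested genes called lower. The markers had their median at -2.85 on the log2 scale. Their summed level was 61971 in control 1 and 93276 in control 2, against 22077 in knockout 1 and 17186 in knockout 3, and none was at 0 in any library. The knockouts were thus low and control 2 was high. The part of this fall in the members' rise was not tested.

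Among the 9 transcription factors 1 rose, 8 were not called, and the median log2 fold change was 0.27. The shares called over all tested genes, 3.28% higher and 13.5% lower, stand beside this count and those of the member groups below. Sox9, the driver of Sertoli cell fate, had normalised read counts of 2188 and 1985 in control 1 and control 2, and 2553 and 2892 in knockout 1 and knockout 3. Both knockouts were above both controls. Its mean rose from 2087 ± 144 to 2722 ± 240 (SD, n = 2), which is 0.38 on the log2 scale (SE 0.09, limma Benjamini-Hochberg adjusted p = 0.0248), and the call held only without knockout 1 (adjusted p = 0.0464) when libraries were left out in turn, with adjusted p = 0.0584, 0.193 and 0.218 without control 1, control 2 and knockout 3. Sox8, its close relative, had 1074, 998, 1220 and 1271 normalised reads in the same order of libraries, a log2 fold change of 0.27 that was not called (limma Benjamini-Hochberg adjusted p = 0.0891).

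Gata4, a zinc finger factor shared with Leydig cells, had 2348 and 1982 normalised reads in the controls and 2604 and 2636 in the knockouts. The groups did not overlap, but the gap between its controls was wider than that between control 1 and either knockout, and the fold change of 0.28 on the log2 scale was not called (limma Benjamini-Hochberg adjusted p = 0.0828). Without control 1 it was called, at 0.40 (adjusted p = 0.0368). Wt1, needed to keep Sertoli cells from losing their identity, had 3632 and 3210 reads in the controls and 3707 and 4060 in the knockouts. Its groups did not overlap, though control 1 and knockout 1 lay close together. The log2 fold change of Wt1 was 0.18 (limma Benjamini-Hochberg adjusted p = 0.195).

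The 4 members on the X chromosome, Rhox5, Rhox8, Gata1 and Nr0b1, are all transcription factors, with log2 fold changes from -0.01 to 0.28. Rhox8 went from 2316 and 2178 normalised reads in the controls to 2782 and 2633 in the knockouts, a log2 fold change of 0.27 just outside the call (limma Benjamini-Hochberg adjusted p = 0.0513). Nr0b1, which encodes the nuclear receptor DAX1, had 1699 and 1722 in the controls and 2278 and 1904 in the knockouts. Its controls were nearly equal and its knockouts were not, and the log2 fold change of 0.28 was not called (limma Benjamini-Hochberg adjusted p = 0.0926). Rhox5, an androgen-responsive homeobox gene, had 536 and 593 in the controls and 604 and 518 in the knockouts, so the groups overlapped fully around a log2 fold change of -0.01. Gata1 (0.10) and Etv5 (0.10), an ETS factor also expressed in spermatogonia, were not called.

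In the AMH, inhibin and FSH axis 1 of 6 members rose, with a median log2 fold change of 0.18. Inhbb, the beta B subunit shared by inhibin B and activin B, had 3178 and 3324 normalised reads in control 1 and control 2, and 3964 and 4310 in knockout 1 and knockout 3. The controls lay close together and both knockouts above them. Its mean rose from 3251 ± 103 to 4137 ± 245 (SD, n = 2), which is 0.35 on the log2 scale (SE 0.08, limma Benjamini-Hochberg adjusted p = 0.0164). That call held without knockout 1 (adjusted p = 0.0465) and was lost without control 1, control 2 and knockout 3 (adjusted p = 0.0918, 0.0986 and 0.164).

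Inha, the alpha subunit that makes a dimer an inhibin, was not called. It had 7289 and 7812 normalised reads in the controls and 7799 and 8179 in the knockouts, and knockout 1 lay just below control 2. Its log2 fold change was 0.08 (95% interval -0.08 to 0.24), an interval that holds the member median. Amhr2, the AMH type II receptor, had 9228 and 10634 in the controls and 10797 and 9647 in the knockouts, with a log2 fold change of 0.04 (95% interval -0.16 to 0.24). Both genes were higher in control 2 than in control 1, by 0.10 for Inha and 0.20 for Amhr2 on the log2 scale, unlike the median member. Leydig cells also express Inha and Amhr2. All 9 Leydig markers were higher in control 2 than in control 1, with summed levels of 4788 and 8716 in the controls and 6529 and 4172 in the knockouts, none at 0, and their part in these 2 genes was not tested.

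Amh itself, the hormone that regresses the Mullerian ducts, had 1348 and 1237 normalised reads in the controls and 1451 and 1632 in the knockouts. Its groups did not overlap, and the log2 fold change of 0.25 was not called (limma Benjamini-Hochberg adjusted p = 0.12). Fshr, the FSH receptor, was read more thinly, with 408 and 356 in the controls and 429 and 412 in the knockouts. That log2 fold change of 0.14 was not called. Inhba, the beta A subunit, had 107, 75.4, 85.2 and 128 in the order control 1, control 2, knockout 1 and knockout 3, so the range of each group covered much of the other.

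Of the 4 growth factor and morphogen genes 1 rose. Kitl, the ligand of the KIT receptor on differentiating spermatogonia, had 2523 and 2502 normalised reads in control 1 and control 2, and 2965 and 3095 in knockout 1 and knockout 3. Replicates of each group were close and the groups did not overlap. Its mean rose from 2512 ± 14.7 to 3030 ± 92.1 (SD, n = 2), which is 0.27 on the log2 scale (SE 0.07, limma Benjamini-Hochberg adjusted p = 0.0389), and leaving out any 1 library ended the call (adjusted p from 0.0957 to 0.257). Gdnf, the niche factor for spermatogonial stem cells, had 111 and 128 in the controls and 140 and 228 in the knockouts. Its log2 fold change of 0.58 came with a 95% interval from -0.01 to 1.17 and was not called, and knockout 3 stood far above knockout 1. Dhh, the desert hedgehog ligand sent to Leydig and peritubular cells, had a log2 fold change of 0.20 with overlapping groups, also not called. Fgf9, best known from fetal testis, was barely read at 6.79, 18.8, 12.0 and 9.22, and its log2 fold change moved from -0.11 to -0.78 without control 1 and to 0.57 without control 2.

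Of the 7 secreted carriers, proteases and inhibitors 1 rose, and the group's median log2 fold change was 0.10. Defb36, a beta-defensin, had 1477 and 1225 normalised reads in control 1 and control 2, and 2082 and 1915 in knockout 1 and knockout 3. Both knockouts were above the controls, which themselves differed by 0.27 on the log2 scale. Its mean rose from 1351 ± 178 to 1998 ± 118 (SD, n = 2), which is 0.57 on the log2 scale (SE 0.11, limma Benjamini-Hochberg adjusted p = 0.00861). The Defb36 call held without control 1 (adjusted p = 0.0143) and knockout 3 (adjusted p = 0.0489), and was lost without control 2 (adjusted p = 0.08) and knockout 1 (adjusted p = 0.0792).

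Cst9, a gene of the cystatin family, was the 1 member with its interval below the member median. It had 6636 and 6434 normalised reads in the controls and 7078 and 6142 in the knockouts, so the knockouts fell on either side of the controls. Its log2 fold change was 0.01 (95% interval -0.17 to 0.20), and the whole interval lay under the member median of 0.21. This placing of Cst9 was not kept without the trend, without a filter on low values, with a pseudocount of 10, when libraries were scaled to Sertoli genes, or without control 1, control 2 or knockout 3. Ctsl, the lysosomal protease cathepsin L, had 18968 and 18619 in the controls and 20488 and 18766 in the knockouts, a log2 fold change of 0.06 (95% interval -0.09 to 0.21). Trf, the iron carrier transferrin, had 522 and 551 in the controls and 573 and 474 in the knockouts, with a log2 fold change of -0.04. Knockout 1 was the highest library for Ctsl, Trf and Cst9, and knockout 3 the lowest for Trf and Cst9.

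Clu carried more reads than any other member, with 61661 and 57954 normalised reads in control 1 and control 2, and 72450 and 65289 in knockout 1 and knockout 3. Both knockouts exceeded both controls, and the log2 fold change of 0.20 lay at the member median without being called (limma Benjamini-Hochberg adjusted p = 0.0881). Scaled to library totals, Clu was called at 0.31 (adjusted p = 0.0144). Shbg, the androgen-binding protein, had 1593 and 1541 in the controls and 1662 and 1708 in the knockouts, a log2 fold change of 0.10 that was not called. Ptgds, a prostaglandin D synthase, was thinly read at 24.2, 57.5, 77.2 and 55.3 in the order control 1, control 2, knockout 1 and knockout 3. Control 2 lay inside the knockout range. Its log2 fold change of 0.79 was not called (limma Benjamini-Hochberg adjusted p = 0.258), and it was 0.18 without control 1 and 1.39 without control 2.

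Defb36 had the largest called rise, Inhbb is the called inhibin subunit gene, and the interval of Cst9 lay below the member median. Upstream sequences are shown for these genes. Each is the 250 bases before the RefSeq start of the gene in build GRCm38.p6, read 5′ to 3′ on the gene's strand, with capitals for the heat shock element letters GAANNTTC. Defb36 is on the plus strand at chr2:152604077-152604326, Inhbb on the minus strand at chr1:119422249-119422498 and Cst9 on the plus strand at chr2:148834897-148835146.
Defb36: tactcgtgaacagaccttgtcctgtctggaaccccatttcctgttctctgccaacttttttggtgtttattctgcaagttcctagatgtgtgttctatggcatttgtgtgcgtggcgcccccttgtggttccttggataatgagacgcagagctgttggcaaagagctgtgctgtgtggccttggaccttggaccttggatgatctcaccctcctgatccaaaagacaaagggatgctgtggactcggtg
Inhbb: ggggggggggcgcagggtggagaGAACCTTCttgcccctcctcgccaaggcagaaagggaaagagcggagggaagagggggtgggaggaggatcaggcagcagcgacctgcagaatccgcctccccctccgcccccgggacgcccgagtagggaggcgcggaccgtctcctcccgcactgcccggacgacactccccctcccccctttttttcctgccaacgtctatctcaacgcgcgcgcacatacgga
Cst9: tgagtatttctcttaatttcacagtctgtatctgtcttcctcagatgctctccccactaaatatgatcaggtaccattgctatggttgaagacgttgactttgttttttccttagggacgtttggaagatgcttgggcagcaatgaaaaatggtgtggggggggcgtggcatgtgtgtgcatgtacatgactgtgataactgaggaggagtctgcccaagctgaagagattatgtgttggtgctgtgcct
A window was found for 23 of the 33 members. Heat shock factors bind arrays of short inverted repeats. The element GAANNTTC, which is its own reverse complement, occurred in 1 of the 23 windows (4.35%), that of Inhbb, against 6.69% of 32851 promoters. The repeat in its other order, with TTC first, was not searched. The other motifs were searched on both strands. The SOX motif AACAAT occurred in 2 windows (8.7%, all promoters 9.42%). The GATA factor motif AGATAA occurred in 2 windows (8.7%, all promoters 9.99%). The NR5A1 motif AAGGTCA occurred in 1 window (4.35%, all promoters 4.08%). No window held more than 1 of these matches, so none overlapped. None of the 3 printed windows held a SOX, GATA or NR5A1 motif, which says only that these letters are not in these windows.

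The cytoskeletal members rose in 2 of 3 tested genes. Vim, the intermediate filament protein vimentin, found in most mesenchymal cells, had 7467 and 6734 normalised reads in control 1 and control 2, and 8546 and 8569 in knockout 1 and knockout 3. Its knockouts were nearly equal and above both controls. On the log2 scale Vim rose by 0.27 (SE 0.07, limma Benjamini-Hochberg adjusted p = 0.0351), and leaving out any 1 library ended the call (adjusted p from 0.055 to 0.268). The edgeR test did not call Vim (adjusted p = 0.0533). Espn, the actin bundler espin of the ectoplasmic specialisation, had 3876 and 3914 in the controls and 4665 and 4690 in the knockouts. Replicates of Espn differed by 0.01 on the log2 scale in each group, and it rose by 0.26 (SE 0.07, limma Benjamini-Hochberg adjusted p = 0.0293). With any 1 library left out the value stayed between 0.26 and 0.27, but with fewer libraries the call was lost (adjusted p from 0.0972 to 0.181). Tubb3, a beta tubulin, had 3266 and 3224 in the controls and 3456 and 3667 in the knockouts, and its log2 fold change of 0.13 was not called. Krt18, a keratin of immature Sertoli cells, had 8 and 3 reads in the controls and 2 and 7 in the knockouts, which put it under the filter. The authors' deposited table gives Krt18 a log2 fold change of -0.23 and an adjusted p of 0.982.

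Aard and Mro rose among the remaining intracellular members, and Fabp5 was not called. Aard, an alanine and arginine rich protein of Sertoli cells, had 21004 and 18891 normalised reads in control 1 and control 2, and 26279 and 26152 in knockout 1 and knockout 3. Its knockouts were nearly equal, and both stood above both controls. The mean rose from 19948 ± 1495 to 26215 ± 89.7 (SD, n = 2), which is 0.40 on the log2 scale (SE 0.07, limma Benjamini-Hochberg adjusted p = 0.00549). Mro, the testis gene maestro, had 3058 and 2868 in the controls and 3586 and 3867 in the knockouts, a log2 fold change of 0.33 (SE 0.08, limma Benjamini-Hochberg adjusted p = 0.0221). Both Mro knockouts were above both controls, and leaving out any 1 library ended the call (adjusted p from 0.0572 to 0.194). Fabp5, a fatty acid binding protein, had 629 and 606 in the controls and 685 and 696 in the knockouts, a log2 fold change of 0.16.

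Levels per length allow the members to be set in order. The length used is that of all annotated exons of a gene merged, which can exceed the length of any transcript. The order therefore also depends on the annotation. As RPKM, reads scaled by exon length and library total, the level in control 1 and control 2 was 1013 and 916 for Clu, 880.2 and 762 for Aard, 546 and 509 for Cst9, 279 and 288 for Inha and 260.0 and 288 for Amhr2. The control values of Clu, Aard and Cst9 did not overlap, and those of Inha and Amhr2 did. Ctsl and Defb36 followed at means of 161 ± 6.51 and 160 ± 25.5 RPKM (SD, n = 2), also overlapping. At the lower end of the mean RPKM stood Gdnf at 1.80 ± 0.126, Ptgds at 1.36 ± 0.753, Inhba at 0.792 ± 0.213, Krt18 at 0.209 ± 0.136 and Fgf9 at 0.151 ± 0.0974. Of the 5 most abundant members per length, Aard alone was called, while the fitted log2 fold change was 0.20 for Clu, 0.01 for Cst9, 0.08 for Inha and 0.04 for Amhr2.

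**Figure D3:**
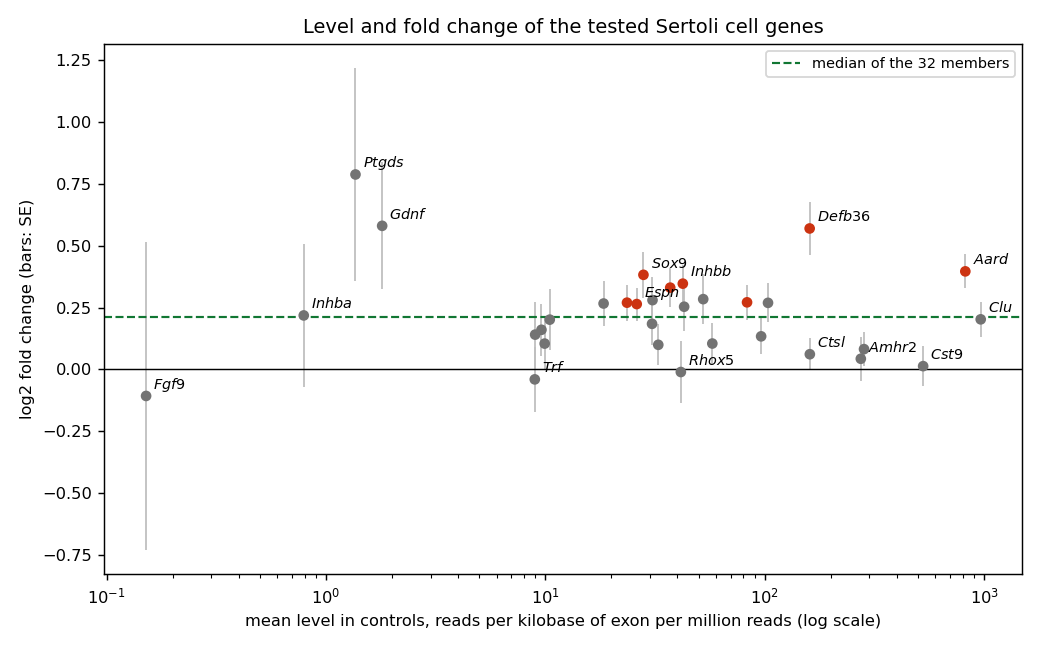
The control level per length of the 32 tested genes (RPKM, log scale) against their log2 fold change, with bars for the SE and red for the 8 called genes. Scatter around the member median of 0.21 is widest for the genes with levels near or below 1.80 RPKM, and the better read genes lie on both sides of it.

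Sertoli genes outside the members gave calls in both directions. In a list of 15, 3 rose and 1 fell, beside 3.28% called higher and 13.5% lower over all tested genes. The list's median log2 fold change was 0.13 with a range from -0.54 to 0.48. Wfdc10, of the whey acidic protein family, had 2291 and 2225 normalised reads in the controls and 3213 and 2818 in the knockouts, a log2 fold change of 0.41 (SE 0.09, limma Benjamini-Hochberg adjusted p = 0.0135). Corin, a membrane serine protease, had 491 and 567 in the controls and 376 and 349 in the knockouts, a log2 fold change of -0.54 (SE 0.13, limma Benjamini-Hochberg adjusted p = 0.0259). The groups of both genes were apart, in opposite directions. Corin lost its call with any 1 library left out (adjusted p from 0.0518 to 0.194), and Wfdc10 without control 1, control 2 and knockout 1 (adjusted p = 0.0665, 0.133 and 0.121). The other rises were in the tight junction gene Cldn11 and the transcription factor gene Dmrt1, named after their values were seen.

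Genes that receive or relay the members' signals were described in 3 lists, beside a background of 3.28% called higher and 13.5% lower over all tested genes. Of 16 genes of AMH and activin signalling 1 rose and 2 fell, and the list median was -0.01 on the log2 scale. Smad3, an activin effector, had 934 and 787 normalised reads in the controls and 1277 and 1110 in the knockouts (log2 fold change 0.47, limma Benjamini-Hochberg adjusted p = 0.0291). Smad1, an effector of AMH and BMP receptors, had 513 and 537 in the controls and 355 and 398 in the knockouts (log2 fold change -0.48, adjusted p = 0.0343). The other fall was in Smad5, named after its value was seen. Smad1 was not called by edgeR (adjusted p = 0.0541) or DESeq2 (adjusted p = 0.0746), and the authors' deposited table calls neither Smad1 nor Smad5. The Smad1 call was lost with any 1 library left out (adjusted p from 0.0981 to 0.216) and that of Smad3 without control 2, knockout 1 and knockout 3 (adjusted p = 0.2, 0.21 and 0.0781).

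Of 11 receptors and relays for Kitl, Gdnf, Dhh and FGF ligands 1 rose, with a median log2 fold change of 0.34. Fgfr1, an FGF receptor, had 677 and 689 normalised reads in the controls and 867 and 1003 in the knockouts, a log2 fold change of 0.45 (limma Benjamini-Hochberg adjusted p = 0.0263), lost with any 1 library left out (adjusted p from 0.0549 to 0.241). The median of that list differed by -0.20 between control 2 and control 1, so the controls were apart there too. Of 11 genes of FSH and cyclic AMP signalling 2 rose, with a median of 0.07. Gnas, the stimulatory G protein subunit, had 276 and 200 in the controls and 426 and 517 in the knockouts (log2 fold change 0.99, limma Benjamini-Hochberg adjusted p = 0.00843), and lost its call without control 2 and knockout 3 (adjusted p = 0.0982 and 0.101). Prkar2a, a regulatory subunit of protein kinase A, had 1067 and 978 in the controls and 1244 and 1424 in the knockouts (log2 fold change 0.38, adjusted p = 0.0392), a call lost with any 1 library left out (adjusted p from 0.0716 to 0.299).

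Markers of the other somatic cells gave no calls in 4 lists and 3 rises among globins. None of 9 Leydig, 6 tested peritubular myoid, 8 macrophage and 7 endothelial markers was called, beside 3.28% called higher and 13.5% lower over all tested genes. Their median log2 fold changes were -0.22, 0.03, 0.11 and 0.18. The median SEs of these lists were 0.28, 0.11, 0.19 and 0.19, against 0.09 for the members. A shift of the size of the member median was thus harder to call in them. Acta2, the smooth muscle actin of myoid cells, had 5588 and 5328 normalised reads in the controls and 5465 and 5402 in the knockouts, a log2 fold change of -0.01 with overlapping groups. Myl9, a myosin light chain, had 3530 and 3444 in the controls and 4229 and 3966 in the knockouts, not called at 0.23. The Leydig genes Hsd3b1 (-0.30) and Fdx1 (-0.19), the macrophage genes Mrc1 (-0.26) and C1qb (0.18) and the endothelial genes Cdh5 (0.19) and Pecam1 (0.20) are given as fitted log2 fold changes that were not called. Vim is also expressed by myoid, endothelial and Leydig cells.

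Of 4 globin genes of red blood cells 3 rose, beside 3.28% of all tested genes called higher. The globin median log2 fold change was 0.81. Summed over the list, the controls had 1397 and 1166 and the knockouts 1797 and 2277, with none at 0. Hbb-bt had 73.7 and 72.4 normalised reads in the controls and 147 and 131 in the knockouts (log2 fold change 0.92, limma Benjamini-Hochberg adjusted p = 0.0232), and Hba-a1 had 409 and 350 in the controls and 529 and 747 in the knockouts (0.73, adjusted p = 0.0243). Both knockouts were higher in each gene, as for the called members, and the part of blood in the members' values was not tested. Hbb-bt was not called by DESeq2 (adjusted p = 0.071). It lost its call with any 1 library left out (adjusted p from 0.0989 to 0.173) and Hba-a1 without control 1, control 2 and knockout 3 (adjusted p = 0.0858, 0.227 and 0.208). The third rise was in Hbb-bs, named after its value was seen. Globin genes have near-identical copies, so their separate values are uncertain.

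Of 9 spermatogonial markers 2 rose and 1 fell, beside 3.28% called higher and 13.5% lower over all tested genes. The list median was 0.19 on the log2 scale. Id4, a stem cell regulator, had 1194 and 1322 normalised reads in the controls and 772 and 572 in the knockouts (-0.92, limma Benjamini-Hochberg adjusted p = 0.00376), and its call was lost without control 2 (adjusted p = 0.0957). Sohlh1, a regulator of spermatogonial differentiation, had 578 and 521 in the controls and 722 and 749 in the knockouts (0.42, adjusted p = 0.0351), a call lost with any 1 library left out (adjusted p from 0.0545 to 0.228). DESeq2 did not call Sohlh1 (adjusted p = 0.0684). The other rise was in Uchl1, named after its value was seen. The 2 pachytene markers with the largest falls were Adam3 at -5.90 and Pou5f2 at -5.63, called with each library left out. Leaving out control 1 or control 2 gave -7.20 or -4.60 for Adam3 and -6.83 or -4.44 for Pou5f2. Markers of rete and epididymal epithelium, which shares Sox9, Clu and Krt18 with Sertoli cells, were low, with 7 of 9 found, a summed level of 62.5 to 64.0 in the controls and 45.1 to 47.1 in the knockouts, and Crisp1, Lcn8 and Adam7 at 0 in at least 1 library. Of these, Pax8 (0.80) and Cst11 (-0.35) passed the filter and were not called, and Pax8 moved to 1.92 and -0.32 when control 1 and control 2 were left out.

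**Figure D4:**
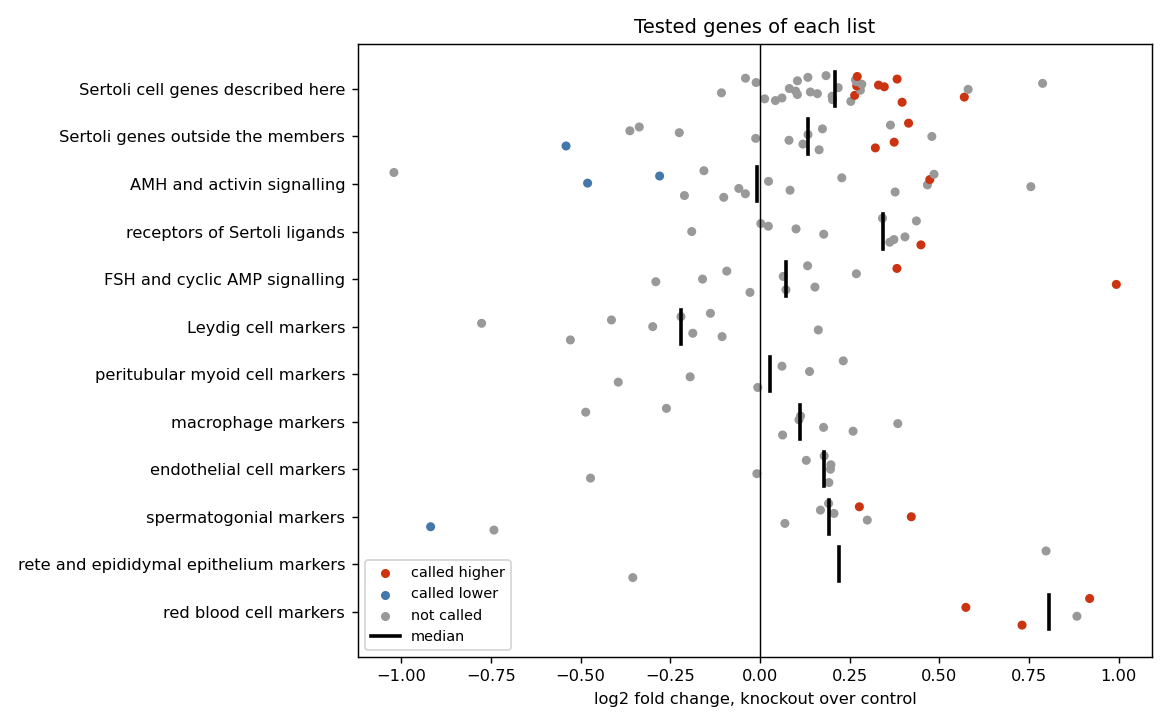
The log2 fold change of each tested gene in the Sertoli list and in 11 of the other 12 lists, with red for genes called higher, blue for lower, grey for not called and a bar at the median. Pachytene markers are left out for scale (median -2.85). The Sertoli list has 8 called rises and no fall, and the other Sertoli genes spread from -0.54 to 0.48.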

How the data were processed

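Testes were profiled by RNA sequencing from libraries made with an NEBNext Ultra kit on total RNA, per the labels' protocols. Tools named in the submitters' processing notes are featureCounts, Bowtie2, DESeq2 and cutadapt, with build mm39. Their versions, the strand setting and the annotation were not in the sources used here. The authors deposited 1 table. Per the file headers it holds a normalised signal per library and, for each gene, the log2 fold change and its error, a score named stat, and p-values before and after adjustment. The deposited signal is the count of reads over a size factor for the library: in each library 100% of values were whole multiples of the value of 1 read, within 1e-06. Genes in the table numbered 29333.

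The groups were compared in R 4.3.3 with limma 3.58.1, using its trend option on log2(value + 1). The 17480 genes whose mean reached 10 were fitted together, and Benjamini-Hochberg adjustment covered all of them. A gene was called at an adjusted p under 0.05. Variances drew on 6.3 prior against 2 residual degrees of freedom. Adding 1 before taking logs shrinks the fold changes of low genes. The code was tested on simulated data. Alternatives were edgeR 4.0.16 and DESeq2 1.42.0 on recovered reads, other pseudocounts, filters and scalings, no trend, and leaving out each library. Exon lengths for RPKM came from GENCODE M21, on another build than the counts, and promoters from RefSeq. From each other list, up to 2 called genes were named by size of change, or where none was called the 2 of highest mean. The members and lists were chosen with earlier results of these data known. Defb36, Cst9, Rhox5, Rhox8, Tubb3 and Fabp5 belong to gene families, and how reads shared between copies or overlapping genes were handled was not in the sources used here.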

Additional observations from a re-analysis of the deposited data

How the results depend on the processing

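All 15 alternatives run kept the direction of the 8 called members. Of 479 values of members under alternatives, 376 kept their direction and side of the threshold, 56 lost the call, 9 gained it, 38 changed sign without being called under either setting, and 0 reversed a call. The sets of calls were smaller without a mean-variance trend: 0 genes higher and 40 lower, 0 members higher, 0 genes of the other lists higher and 0 lower, and 0 members with an interval that excluded the member median. Without a filter on low values there were 37 genes higher, 815 lower, 0 members higher, and 0 genes of the other lists higher and 7 lower, against 12 and 15 in the main comparison. The cause of these 2 drops was not tested. Scaled to library totals, 1511 genes, 14 members and 20 genes of the other lists were higher, and the member median was 0.32. Scaled to the Sertoli genes outside the members, 98 genes, 1 member and 2 genes of the other lists were higher, 1 member interval excluded the member median, and that median was 0.071. Scaled to the members, the median turned to -0.010 by construction, 72 genes were higher and 4244 lower, 1 member was higher, and 1 gene of the other lists was higher and 25 lower. These scalings moved the median of all tested genes from 0.01 to 0.12, -0.12 and -0.21.

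With each library left out in turn, the genes called ranged from 31 to 337 higher and from 889 to 2096 lower, members called higher from 0 to 3, genes of the other lists higher from 0 to 4, intervals excluding the member median from 2 to 5, and the member median from 0.16 (without control 2) to 0.26 (without control 1). A fit that leaves a group with 1 library assumes that it varies like the other group. edgeR gave no interval, so the count of intervals was not made with it. No paired analysis was possible because the labels state no pairs between the groups. Depth limits what can be said of Krt18, Fgf9, Ptgds, Inhba and Gdnf, whose SEs or read numbers cannot separate the member median from 0.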
